A study of Mus musculus with 24 samples.

Results

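Collagens and laminins are secreted proteins of the extracellular matrix, and integrins are the cell surface receptors that bind them. The genes described here are all those of the deposited expression table whose symbol names a collagen chain, a laminin chain or an integrin subunit, together with Fn1, which encodes the matrix protein fibronectin. They number 84 of the 22889 genes listed, namely 44 collagen genes, 11 laminin genes, 28 integrin genes and Fn1. Names containing bp, given to proteins that bind integrins, were left out, and a pair of the integrin names, Itgbl1 and Itgb2l, belong to integrin-related genes.

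The study made motor neurons from mouse embryonic stem cells grown as embryoid bodies and measured poly(A) RNA in sorted cells by SMART-seq2, a protocol without molecular identifiers. Oculomotor cultures came from an Islet1-GFP line that also carries NesEPhox2a, in which a nestin enhancer limits Phox2a to neural progenitors, and received 250 nM of the hedgehog agonist SAG with 100 ng/ml FGF8 for 5 days. Spinal cultures came from an Hb9-GFP line and received 500 nM SAG with 100 nM retinoic acid for 5 days. Each culture was sorted into GFP-positive and GFP-negative cells, which gave 4 groups of 6 samples. Line, reporter, transgene and patterning factors change together between the cultures, so their effects cannot be told apart. The labels number the replicates 1 to 6 but do not say that each came from a separate differentiation, so the p-values below measure spread between these samples, which may be in part technical.

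Values are RPKM, a read density that allows for transcript length and for the number of mapped reads, and read counts were not used here. The reads behind each sample were estimated from the spacing of its RPKM values over 5911 genes that have 1 annotated transcript. In each sample 95.9 to 97.9% of the values tested fell within 2.0% of a whole number of reads at the estimated total. Only values of few reads were tested. Each total was chosen to make this share high, so the share is no separate check of it. The totals ran from 755453 reads in spinal GFP-negative replicate 3 to 7674952 in spinal GFP-positive replicate 6. Replicates 1 to 4 held 755453 to 4644167 reads with a median of 2833167, and replicates 5 and 6 held 4823559 to 7674952 with a median of 6978732. For Fn1, whose longest annotated transcript has 8315 bases, 1 read was worth 0.0157 to 0.159 RPKM, so values near or under 0.1 RPKM rest on very few reads. For Itgb5, whose longest has 3282 bases, 1 read was worth 0.0397 to 0.403 RPKM, so the limit lies higher for shorter genes. This precision covers counting only, because amplified reads without molecular identifiers are not independent molecules.

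The group labels were compared with marker genes. The motor neuron gene Isl1 stood at 141 to 369 RPKM in oculomotor GFP-positive samples and at 0.696 to 1.87 RPKM in the GFP-negative ones. Mnx1, the gene behind the Hb9 reporter, reached at most 6.91 RPKM in oculomotor GFP-positive samples. In 5 of the 6 spinal GFP-positive samples Isl1 stood at 50.4 to 123 RPKM, and in 5 of the 6 spinal GFP-negative samples Mnx1 stood at 0.189 to 4.72 RPKM.

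The exceptions were both samples of spinal replicate 4. The GFP-positive one held 7.63 RPKM of Isl1, 36.5 of Tubb3, a neuronal tubulin gene, and 156 of Nanog, a pluripotency gene. Its 43.1 RPKM of Mnx1 lay just below the 55.8 to 149 of the other 5, and its 3.92 RPKM of the motor neuron gene Chat lay among them. The GFP-negative one held 69.4 RPKM of Mnx1, 185 of Nanog and 50.3 of Pou5f1, while its 8.56 RPKM of Isl1 lay within its group. Across genes, their expression correlated at 0.966, against 0.864 to 0.937 for the other 11 pairs of fractions with the same number, and each was the closest of all samples to the other. These samples go in part against their labels as a sorted pair, so counts of members are given with and without them, as are some results on single genes and other gene lists. That choice was made after the data were seen. Spinal GFP-negative replicate 2 also stood apart, with 68.8% of its summed RPKM in 3 entries led by the gene model Gm10800, against 24.3% in its GFP-positive partner.

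Collagen IV and laminins form the sheets of the basement membrane, to which nidogens and the proteoglycan perlecan bind. A laminin is a trimer of an alpha, a beta and a gamma chain, and an integrin is a pair of an alpha and a beta subunit, the beta 1 subunit being shared by the receptors for laminin, collagen and fibronectin alike. In embryoid bodies a basement membrane is known to form beneath an outer layer of endoderm, and in the embryo one surrounds the neural tube, through which motor axons leave.

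Most members were scarce. A mean of at least 1 RPKM in some group was reached by 29 of the 84, against 59.2% of all genes listed, while 55 stayed under it in every group. In single groups, 18 members reached it in oculomotor GFP-positive, 21 in oculomotor GFP-negative, 21 in spinal GFP-positive and 25 in spinal GFP-negative cells. Only 14 did so in every group, and 19 were above 0 in all 24 samples.

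Collagen genes together had a median of 28.6 RPKM in oculomotor GFP-positive and 97.1 in oculomotor GFP-negative samples, and of 32.7 and 456 in the spinal fractions. Laminin genes together had medians of 6.46 and 39.3 RPKM in the oculomotor fractions and of 8.92 and 192 in the spinal ones. Integrin genes together had medians of 64.9 and 63.1 RPKM in the oculomotor fractions and of 50.2 and 90.9 in the spinal ones. Summed laminin RPKM did not overlap between spinal fractions without replicate 4, at 5.04 to 19.6 against 104 to 358. A few genes carried these sums, so they do not describe each family as a whole. In spinal GFP-negative samples Col4a1 and Col4a2 had means of 257 and 143 RPKM, while Col18a1 led the collagens in both GFP-positive groups. Of the 44 collagen genes, 31 had a mean under 1 RPKM in every group. Itgb1 led the integrins in every group, with a mean of 38.4 RPKM over all samples. These are sums of levels per length, and no test was run on them.

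**Figure D1:**
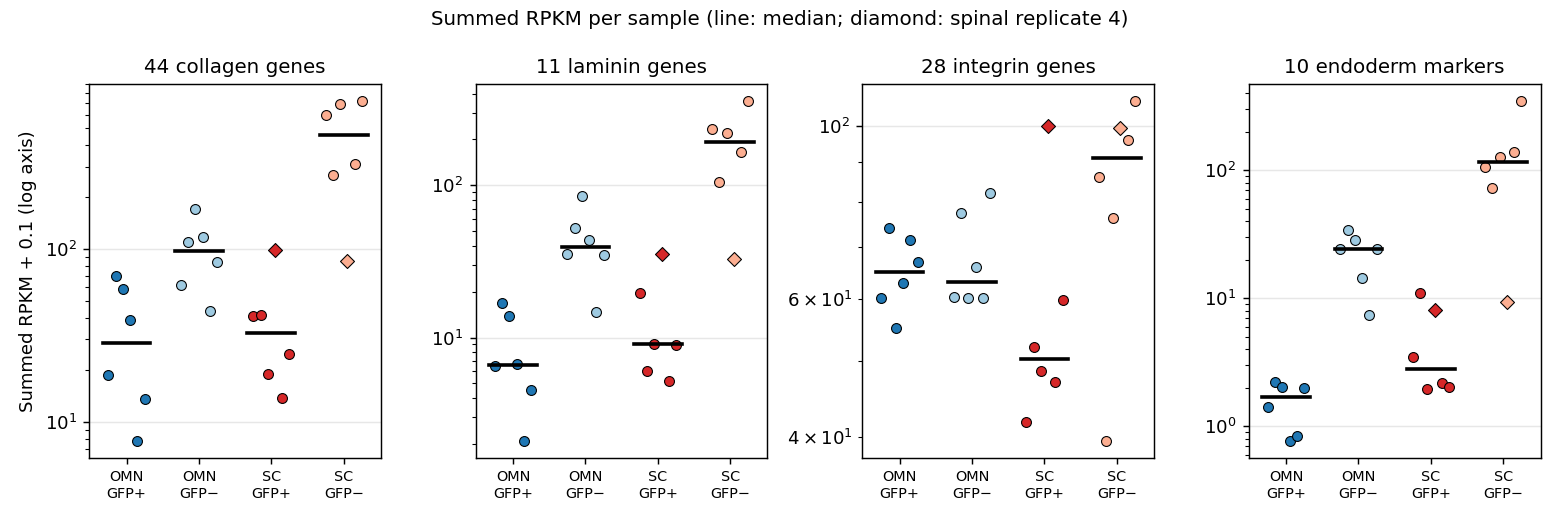
Summed RPKM in each of the 24 samples (log axis, 0.1 added) for the 44 collagen, 11 laminin and 28 integrin genes and for 10 markers of endoderm. Points are samples, lines are group medians and diamonds mark spinal replicate 4, whose GFP-negative sample lies below the other 5 of its group for collagens, laminins and endoderm markers.

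Genes were tested with limma on log2(RPKM + 1), with p-values adjusted over all genes tested and called at an adjusted p under 0.05. Adding 1 shrinks the log2 differences of scarce genes, so the sizes given for scarce and abundant genes cannot be compared as fold changes. Bulk RNA cannot tell fewer cells of a type from less RNA per cell, and this holds for each difference below. The first question was which members differ between the GFP-positive and GFP-negative cells of a culture. In the oculomotor culture 7 of the 84 members were lower in GFP-positive cells, where 2.34% of the 22179 genes tested were lower. No member was higher by limma (0 calls, with 4 at an unadjusted p under 0.05), where 3.81% of all genes were higher. In both directions together, 18 members and 18.1% of all genes were at an unadjusted p under 0.05. In the spinal culture 5 members were lower, where 0.83% of all genes were lower, and 0 were higher by limma, with 2 at an unadjusted p under 0.05, where 0.397% of all genes were higher. There 19 members and 10.4% of all genes were at an unadjusted p under 0.05 in either direction. The median log2 difference of the members was -0.04 in the oculomotor and -0.07 in the spinal culture, beside a median of 0 over all genes in each. With 55 members under a mean of 1 RPKM in every group, the added 1 RPKM holds such medians near 0. Here and below they say little about the typical member. These fits do not pair the samples. With samples paired by number within each culture, 10 members were lower and 2 higher in oculomotor GFP-positive cells, where 8.21% of all genes were lower and 8.22% higher, and 8 were lower in spinal ones, where 1.6% of all genes were lower.

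The fit of all groups shares its variance, so leaving out spinal samples moves oculomotor calls too. With both samples of spinal replicate 4 left out, 9 members were lower in oculomotor GFP-positive cells, where 3.98% of all genes were lower, the 2 added being Col4a1 and Col4a2. By limma 0 were higher there, where 4.38% of all genes were higher, with 21 members at an unadjusted p under 0.05 in either direction. Without both samples of spinal replicate 4, 8 members were lower in spinal GFP-positive cells, where 1.54% of all genes were lower. The 3 added were Itgb5, Lamb2 and Col27a1. Leaving out GFP-negative replicate 4 alone gave 6, where 1.25% of all genes were lower, and leaving out GFP-positive replicate 4 alone gave 8, where 1.37% of all genes were lower.

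Both cultures share a sorting design but not a line, and the difference between their fraction differences was tested as an interaction. No member passed it by limma (0 calls, with 10 at an unadjusted p under 0.05), where 0.32% of all genes passed. Of all genes, 7.13% were at an unadjusted p under 0.05. Without both samples of spinal replicate 4, 2 members passed, Col4a1 and Col4a2, where 1.04% of all genes did. The same 2 passed without spinal GFP-negative replicate 4 alone, where 1.06% of all genes did.

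Col4a1 encodes the alpha 1 chain of collagen IV, the network-forming collagen of basement membranes. It had 0.723, 2.85 and 6.98 RPKM (lowest, median and highest of 6) in spinal GFP-positive and 3.03, 257 and 463 RPKM in spinal GFP-negative samples. The groups overlapped through GFP-negative replicate 4 alone, whose 3.03 RPKM lay among the GFP-positive values while the other 5 began at 155. Col4a1 fell by 5.29 on the log2 scale in GFP-positive cells (SE 0.84, limma adjusted p 0.00182, lower in 5 of 6 pairs). The log2 difference was -4.75 within replicates 1 to 4 and -6.39 within replicates 5 and 6, which hold 2 samples a group. Without both samples of replicate 4 it was -6.39 (limma adjusted p 5.83e-07).

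Its partner Col4a2 encodes the alpha 2 chain, which joins pairs of alpha 1 chains in the commonest collagen IV trimer. It had 0.94, 1.26 and 5.29 RPKM in spinal GFP-positive and 1.78, 154 and 294 RPKM in spinal GFP-negative samples. Again the lowest GFP-negative value was that of replicate 4, and the other 5 ran from 71.0 RPKM upward, clear of the GFP-positive group. Col4a2 fell by 4.81 on the log2 scale (SE 0.78, limma adjusted p 0.00185, lower in 6 of 6 pairs). Within replicates 1 to 4 the log2 difference was -4.31 and within replicates 5 and 6 it was -5.82. Without both samples of replicate 4 it was -5.75 (limma adjusted p 5.03e-07).

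In the oculomotor culture the mean levels of both genes in GFP-negative cells were below the spinal ones. Col4a1 had 0.566, 3.83 and 9.64 RPKM in GFP-positive and 9.56, 25.5 and 78.0 RPKM in GFP-negative samples, ranges that barely overlapped. Its log2 difference was -2.62 (limma adjusted p 0.0664, lower in 6 of 6 pairs) and missed the threshold, although it passed with the samples paired by number within each culture (adjusted p 0.0234). It passed in 8 of 10 alternatives other than those that leave out 1 sample, its adjusted p lying between 0.000462 and 0.342. Col4a2 had 0.875, 3.94 and 14.2 RPKM in GFP-positive and 8.12, 17.8 and 33.2 RPKM in GFP-negative samples, with overlap, and a log2 difference of -1.65 (limma adjusted p 0.256, or 0.0302 without both samples of spinal replicate 4). The interaction was 2.67 for Col4a1 (limma adjusted p 0.622) and 3.16 for Col4a2 (limma adjusted p 0.385) with all samples. Without both samples of spinal replicate 4 it was 3.77 for Col4a1 (limma adjusted p 0.0199) and 4.10 for Col4a2 (limma adjusted p 0.00323), so that the spinal fraction difference was larger.

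Of the other collagen IV chains, Col4a5 and Col4a6 were detected at low levels and Col4a3 and Col4a4 had means of at most 0.202 RPKM in every group. Col4a5 had 0, 0.044 and 0.566 RPKM in oculomotor GFP-positive and 0.205, 0.588 and 1.75 RPKM in oculomotor GFP-negative samples, with overlap and a log2 difference of -0.64 (limma adjusted p 0.0683, lower in 4 of 6 pairs). It passed in 3 of 9 alternatives other than leaving out single samples, at 0.0128 to 0.519, and without oculomotor GFP-positive replicate 2 or GFP-negative replicate 1. The spinal log2 difference of Col4a5 was -0.74 (limma adjusted p 0.0821, lower in 5 of 6 pairs) and passed only without spinal GFP-positive replicate 6 (limma adjusted p 0.028). Col4a6 was at 0, 0.00982 and 0.294 RPKM in oculomotor GFP-positive and at 0.173, 0.44 and 1.01 RPKM in oculomotor GFP-negative samples, with GFP-positive replicate 3 alone inside the GFP-negative range. It fell by 0.48 on the log2 scale (SE 0.11, limma adjusted p 0.00969, lower in 6 of 6 pairs), a call that rests on values of about 1 RPKM or less. Within replicates 1 to 4 its log2 difference was -0.30, where the call was lost (adjusted p 0.262), and within replicates 5 and 6 it was -0.84.

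Laminin alpha 1, encoded by Lama1, is the alpha chain of the laminin of early embryonic basement membranes. Lama1 had 0.259, 0.333 and 0.685 RPKM in oculomotor GFP-positive and 3.31, 9.22 and 21.3 RPKM in oculomotor GFP-negative samples, with no overlap. In the spinal fractions it had 0.901, 1.66 and 4.86 RPKM and 2.45, 65.1 and 101 RPKM, overlapping only through GFP-negative replicate 4, the lowest of its group. The mean RPKM of GFP-negative samples was 26.1 times that of GFP-positive ones in the oculomotor and 24.1 times in the spinal culture. Lama1 fell by 2.88 on the log2 scale in oculomotor GFP-positive cells (SE 0.58, limma adjusted p 0.00315, lower in 6 of 6 pairs). In spinal GFP-positive cells it fell by 3.72 (SE 0.58, limma adjusted p 0.00162, lower in 6 of 6 pairs), and by 4.35 without both samples of replicate 4 (limma adjusted p 5.03e-07). The values within replicates 1 to 4 and within 5 and 6 were -3.12 and -2.39 in the oculomotor and -3.08 and -5.00 in the spinal culture.

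Lamb1, for the beta 1 chain of the same laminin, had 0.174, 0.912 and 1.62 RPKM in oculomotor GFP-positive and 4.24, 12.0 and 36.5 RPKM in oculomotor GFP-negative samples. Its spinal values were 0.0583, 1.62 and 8.03 RPKM in GFP-positive and 7.19, 73.3 and 187 RPKM in GFP-negative samples. The oculomotor fractions did not overlap, and the spinal ones did only because both extreme values, 8.03 and 7.19 RPKM, were those of replicate 4. Lamb1 fell by 2.86 in oculomotor GFP-positive cells on the log2 scale (SE 0.62, limma adjusted p 0.00535, lower in 6 of 6 pairs), a call lost in replicates 1 to 4 alone (adjusted p 0.0696). In spinal GFP-positive cells it fell by 4.33 (SE 0.62, limma adjusted p 0.000512, lower in 5 of 6 pairs), and by 5.22 without both samples of replicate 4 (limma adjusted p 1.32e-06). Its log2 differences within replicates 1 to 4 and within 5 and 6 were -2.91 and -2.77 in the oculomotor and -3.79 and -5.41 in the spinal culture.

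The gamma 1 chain, found in most laminins, comes from Lamc1. This gene had 0.312, 2.45 and 14.5 RPKM in spinal GFP-positive and 11.2, 37.1 and 59.6 RPKM in spinal GFP-negative samples. Only the 14.5 RPKM of GFP-positive replicate 4 reached into the other group, whose lowest sample was GFP-negative replicate 2. Lamc1 fell by 3.10 on the log2 scale (SE 0.53, limma adjusted p 0.00266, lower in 5 of 6 pairs) and by 3.72 without both samples of replicate 4 (limma adjusted p 7.02e-05). Within replicates 1 to 4 the log2 difference was -2.70 and within replicates 5 and 6 it was -3.90. In the oculomotor culture it had 1.00, 2.75 and 6.70 RPKM against 2.21, 8.84 and 16.4 RPKM, and a log2 difference of -1.36 (limma adjusted p 0.153, or 0.0452 with samples paired by number within each culture). It passed in 2 of 10 alternatives other than leaving out single samples, at 0.00648 to 0.263.

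These 5 spinal calls on collagen IV and laminin genes held in each of the 12 fits that left out a single spinal sample. None of them held in a fit of the 12 spinal samples alone, where limma called 0 members, with 15 at an unadjusted p under 0.05, and 4 genes in all. None held in replicates 1 to 4 alone either, where limma called 0 members, with 14 at an unadjusted p under 0.05, and 1 gene in all.

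**Figure D2:**
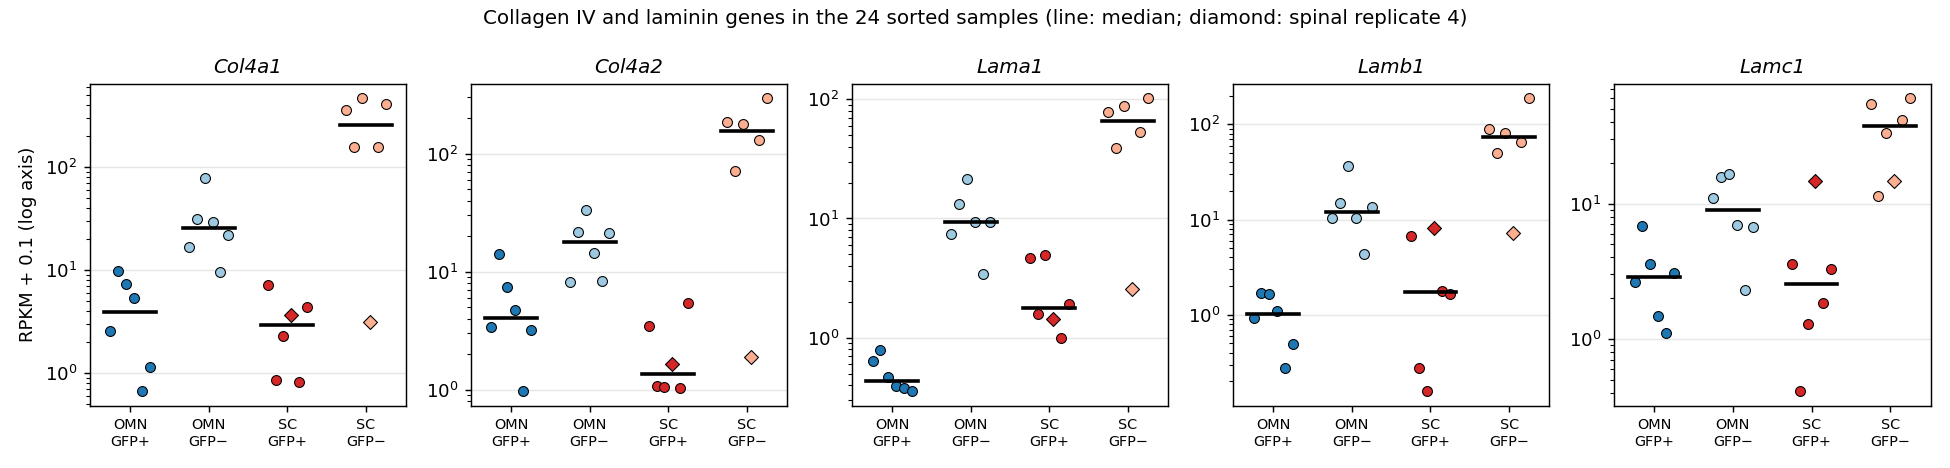
RPKM of Col4a1, Col4a2, Lama1, Lamb1 and Lamc1 in each of the 24 samples (log axis, 0.1 added). Points are samples, lines are group medians and diamonds mark spinal replicate 4, whose GFP-negative sample lies at 3.03 RPKM for Col4a1 against 155 to 463 in the other 5.

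Lama5, the alpha chain of the laminin common in later basement membranes, had group medians of 1.50 RPKM in oculomotor GFP-positive, 3.69 in oculomotor GFP-negative, 1.41 in spinal GFP-positive and 0.859 in spinal GFP-negative samples, with overlap throughout. Lamb2, which can replace the beta 1 chain, had medians of 1.62, 3.68, 1.64 and 7.16 RPKM in the same order. It was not called with all samples, and its log2 difference between spinal fractions without replicate 4 was -1.80 (limma adjusted p 0.0332). The chains Lama2, Lama3, Lama4, Lamb3 and Lamc3 had means of at most 0.135 RPKM in every group.

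The genes Col4a1 and Col4a2 lie head to head on chromosome 8. In GENCODE M21 on GRCm38, Col4a1 spans 11198423 to 11312826 on the - strand and Col4a2 spans 11312805 to 11449287 on the + strand, so that their annotated starts overlap by 22 bases. The other collagen IV genes lie in the same arrangement, Col4a4 and Col4a3 with 71 bases between their starts on chromosome 1, and Col4a6 and Col4a5 with 1308 bases between theirs on chromosome X. Reads from the 22 shared bases cannot be given to either gene without strand, but they are a small share of the 6615 and 6450 bases of the longest annotated transcripts. Of the laminin genes above, Lama1 lies on chromosome 17, Lamb1 on chromosome 12 and Lamc1 on chromosome 1. The stretch around both collagen IV starts is printed because the pair changed together in the spinal culture. It is taken from RefSeq promoter sequence, GRCm38.p6, chr8:11312801-11312830, + strand, with the 22 shared bases in capitals.
Col4a1 and Col4a2 starts: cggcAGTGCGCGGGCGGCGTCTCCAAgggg
The RefSeq table held a promoter, from 250 bases before to 50 after the start, for 60 of the 84 members, and among the 5 genes above Lama1 and Lamc1 were not in it. Both Col4a promoters share 78 bases. On both strands, GGGCGG occurred 1 time in the Col4a1, 3 times in the Col4a2 and 2 times in the Lamb1 promoter, and 35.7% of all 32851 promoters held it. CCAAT occurred 1 time in each of the 3, and 37.4% of all promoters held it. TATAAA (held by 13.6% of all promoters), AGATAA (11.2%) and ACAAAG (18.7%) occurred in none of the 3. A match of letters is a description and shows no bound site.

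Among fibrillar collagens, Col2a1 and Col5a1 had the highest means over all samples. Col2a1, the collagen of cartilage and notochord, had 0.314, 2.66 and 8.87 RPKM in oculomotor GFP-positive and 6.88, 7.38 and 15.4 RPKM in oculomotor GFP-negative samples, so that the ranges overlapped at the top of the GFP-positive group. It fell by 1.52 on the log2 scale (SE 0.42, limma adjusted p 0.0291, lower in 5 of 6 pairs), by 1.02 within replicates 1 to 4 and by 2.52 within replicates 5 and 6. The call was lost without oculomotor GFP-positive replicate 4, 5 or 6 or GFP-negative replicate 3 or 4, with adjusted p-values up to 0.0823, and in replicates 1 to 4 alone (0.245). Col2a1 in the spinal fractions had 0.43, 1.26 and 2.26 RPKM in GFP-positive and 0.54, 2.97 and 3.76 RPKM in GFP-negative samples, with overlap, and was not called. Col5a1, a collagen V chain that nucleates fibrils, had medians of 0.369 and 1.50 RPKM in the oculomotor and 0.653 and 1.32 RPKM in the spinal fractions, and no call.

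The main chains of collagen I and III were low. Col1a1 reached at most 2.28 RPKM, Col1a2 at most 1.98 and Col3a1 at most 0.46 in any of the 24 samples. Col1a2 was the one of these whose levels lay higher in oculomotor GFP-positive cells, at 0.151, 0.501 and 1.98 RPKM against 0, 0.269 and 0.396 in GFP-negative cells. The 2 groups overlapped, and the log2 difference of 0.47 missed the threshold (limma adjusted p 0.1, higher in 5 of 6 pairs). It passed with samples paired by number within each culture (adjusted p 0.0367), the 1 alternative of 9 in which it did apart from leaving out single samples, the others reaching 0.268. Without oculomotor GFP-positive replicate 5 it passed too, at a log2 difference of 0.59 (adjusted p 0.0324).

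Collagens that bind to fibrils or networks rather than build them were led by Col9a2 and Col22a1. Col9a2 reached 16.2 RPKM in spinal GFP-positive and 13.5 RPKM in spinal GFP-negative cells, and both samples were replicate 4, the others reaching at most 5.31 RPKM. Col22a1 was above 0 in all 24 samples, between 0.102 and 4.92 RPKM. Col18a1, a heparan sulfate collagen of basement membranes and the source of endostatin, had 0.624, 4.40 and 16.6 RPKM in oculomotor GFP-positive and 9.33, 27.9 and 44.7 RPKM in oculomotor GFP-negative samples. These fractions overlapped, and the log2 difference of -2.08 (limma adjusted p 0.0926, lower in 6 of 6 pairs) missed the threshold. With samples paired by number within each culture the adjusted p was 0.000494, and 5 of 10 alternatives other than leaving out single samples passed, at 0.000494 to 0.131. Col18a1 in the spinal fractions had 3.43, 12.9 and 63.6 RPKM and 4.36, 25.3 and 56.3 RPKM, nearly the same range, and its log2 difference was -0.58 (limma adjusted p 0.865).

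Other collagen classes stayed low. The other multiplexin, Col15a1, reached at most 0.186 RPKM. Collagen VI, which forms beaded filaments, was led by Col6a1 and Col6a2, with highest values of 1.63 and 0.30 RPKM. Among short-chain collagens Col8a2 reached 4.42 and Col26a1 1.49 RPKM, and among transmembrane collagens Col13a1 reached 3.07 and Col23a1 1.11 RPKM. None of these 7 genes was called in any of the 5 comparisons with all samples. Col6a1 had a log2 difference of -0.58 between spinal fractions (limma adjusted p 0.126, lower in 5 of 6 pairs) and of -0.68 between oculomotor and spinal GFP-negative cells (limma adjusted p 0.0672, lower in 5 of 6). It passed in 3 of 10 and 2 of 9 alternatives other than leaving out single samples, down to 0.0393 and 0.00371, and in both comparisons without spinal GFP-negative replicate 3. Col27a1, a fibrillar collagen, was called between spinal fractions without replicate 4, with a log2 difference of -0.88 (limma adjusted p 0.00807), at levels of at most 2.04 RPKM. It passed in 5 of 10 alternatives other than leaving out single samples, at 0.00402 to 0.654, and without spinal GFP-positive replicate 1 or GFP-negative replicate 4.

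Fibronectin binds integrins and collagens and can be assembled into fibrils by cells. Fn1 had 1.10, 5.33 and 5.84 RPKM in oculomotor GFP-positive and 8.37, 17.7 and 21.7 RPKM in oculomotor GFP-negative samples. The fractions did not overlap, and the low GFP-positive values were those of replicates 5 and 6. Fn1 fell by 1.94 on the log2 scale (SE 0.55, limma adjusted p 0.0351, lower in 6 of 6 pairs), by 1.37 within replicates 1 to 4 and by 3.08 within replicates 5 and 6. The call was lost without GFP-positive replicate 5 or 6 or without GFP-negative replicate 1, 2, 3, 5 or 6, with adjusted p-values up to 0.0893, and in replicates 1 to 4 alone (0.446). Fn1 in the spinal fractions had 1.04, 3.78 and 35.8 RPKM in GFP-positive and 3.41, 9.95 and 35.1 RPKM in GFP-negative samples. Both highest values were those of replicate 4, the groups overlapped with and without it, and Fn1 was not called in either case.

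Integrin beta 1, the partner of most alpha subunits, was the most abundant integrin. Itgb1 had 37.6, 50.6 and 55.6 RPKM in oculomotor GFP-positive and 25.3, 33.5 and 44.9 RPKM in oculomotor GFP-negative samples. In the spinal fractions it had 24.7, 27.6 and 39.6 RPKM and 18.2, 41.6 and 56.2 RPKM, and the fractions of each culture overlapped. Its log2 difference was 0.49 in the oculomotor culture (limma adjusted p 0.32, higher in 6 of 6 pairs) and -0.28 in the spinal one (limma adjusted p 0.783, lower in 4 of 6 pairs). Neither passed, nor did the interaction of 0.77 (limma adjusted p 0.657).

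The beta 5 subunit pairs with alpha v in a receptor for vitronectin. Its gene Itgb5 had 0, 0.664 and 2.21 RPKM in oculomotor GFP-positive and 3.70, 6.44 and 11.3 RPKM in oculomotor GFP-negative samples, with no overlap. It fell by 2.09 on the log2 scale (SE 0.45, limma adjusted p 0.00584, lower in 6 of 6 pairs), by 2.15 within replicates 1 to 4 and by 1.96 within replicates 5 and 6, and the call was lost in replicates 1 to 4 alone (adjusted p 0.0976). The spinal values were 0, 0.529 and 7.08 RPKM in GFP-positive and 1.58, 4.11 and 10.1 RPKM in GFP-negative samples, and the overlap was due to GFP-positive replicate 4, the other 5 reaching 0.93 RPKM. Itgb5 was not called there with all samples, and was without both samples of replicate 4, at a log2 difference of -1.63 (limma adjusted p 0.0129). It passed in 3 of 11 alternatives other than leaving out single samples, at 0.0129 to 0.612, and without spinal GFP-positive replicate 4.

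Integrin alpha 6 is a laminin receptor subunit that pairs with beta 1 or beta 4. Itga6 had 0.16, 0.671 and 1.10 RPKM in oculomotor GFP-positive and 0.437, 5.37 and 7.31 RPKM in oculomotor GFP-negative samples, with overlap at the bottom of the GFP-negative range. It fell by 1.51 on the log2 scale (SE 0.41, limma adjusted p 0.0259, lower in 6 of 6 pairs), by 1.97 within replicates 1 to 4 and by 0.59 within replicates 5 and 6. The call was lost without oculomotor GFP-positive replicate 5 or 6 or GFP-negative replicate 1, 2, 3 or 4, with adjusted p-values up to 0.0716. The other laminin-binding subunit at the head of its class, Itga3, ran from 0.124 to 4.04 RPKM in the oculomotor culture and reached 15.4 and 18.5 RPKM in the GFP-positive and GFP-negative samples of spinal replicate 4. It was not called in any comparison.

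Of the subunits that read the RGD motif of fibronectin and vitronectin, Itgav and Itga5 were the most abundant. Itgav had medians of 1.79 and 4.44 RPKM in the oculomotor and 3.23 and 6.33 RPKM in the spinal fractions, and Itga5 had medians of 1.46, 2.95, 0.304 and 5.47 RPKM in the same order. Both overlapped between fractions and neither was called with all samples. Without spinal GFP-positive replicate 4, which held 15.6 RPKM of Itga5, the log2 difference of Itga5 between spinal fractions was -1.93 (limma adjusted p 0.0402), but without both samples of replicate 4 it was -1.73 (limma adjusted p 0.0846) and missed the threshold, as it did in all 11 alternatives other than leaving out single samples.

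Itga9 and Itga4 encode subunits that bind tenascin, fibronectin and the vascular adhesion molecule Vcam1. Itga9 had medians of 1.93 and 1.10 RPKM in the oculomotor and 0.709 and 0.912 RPKM in the spinal fractions, with overlap. Itga4 had 0.231, 0.38 and 1.03 RPKM in oculomotor GFP-positive and 0, 0.0232 and 0.104 RPKM in oculomotor GFP-negative samples, with no overlap. Its log2 difference of 0.55 missed the threshold (limma adjusted p 0.0765, higher in 6 of 6 pairs) and passed with samples paired by number within each culture (adjusted p 0.0331), as it did in 5 of 9 alternatives apart from leaving out single samples, at 0.0116 to 0.21.

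The collagen-binding subunits were scarce, Itga10 reaching 1.43 and Itga1 0.35 RPKM. Of the integrin-related genes, Itgbl1 reached 0.616 RPKM and Itgb2l was above 0 in 2 of the 24 samples. Among leukocyte integrins Itgam ran from 0.255 to 20.6 RPKM over all samples and Itgae from 0 to 1.07 RPKM, while Itgb2, the beta partner of both alpha M and alpha X, reached at most 0.231 RPKM. Among blood markers the pan-leukocyte gene Ptprc reached at most 0.0967, Spi1 0.611, Csf1r 1.59 and Tyrobp 6.92 RPKM, the last value and that of Csf1r in oculomotor GFP-positive samples.

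**Figure D3:**
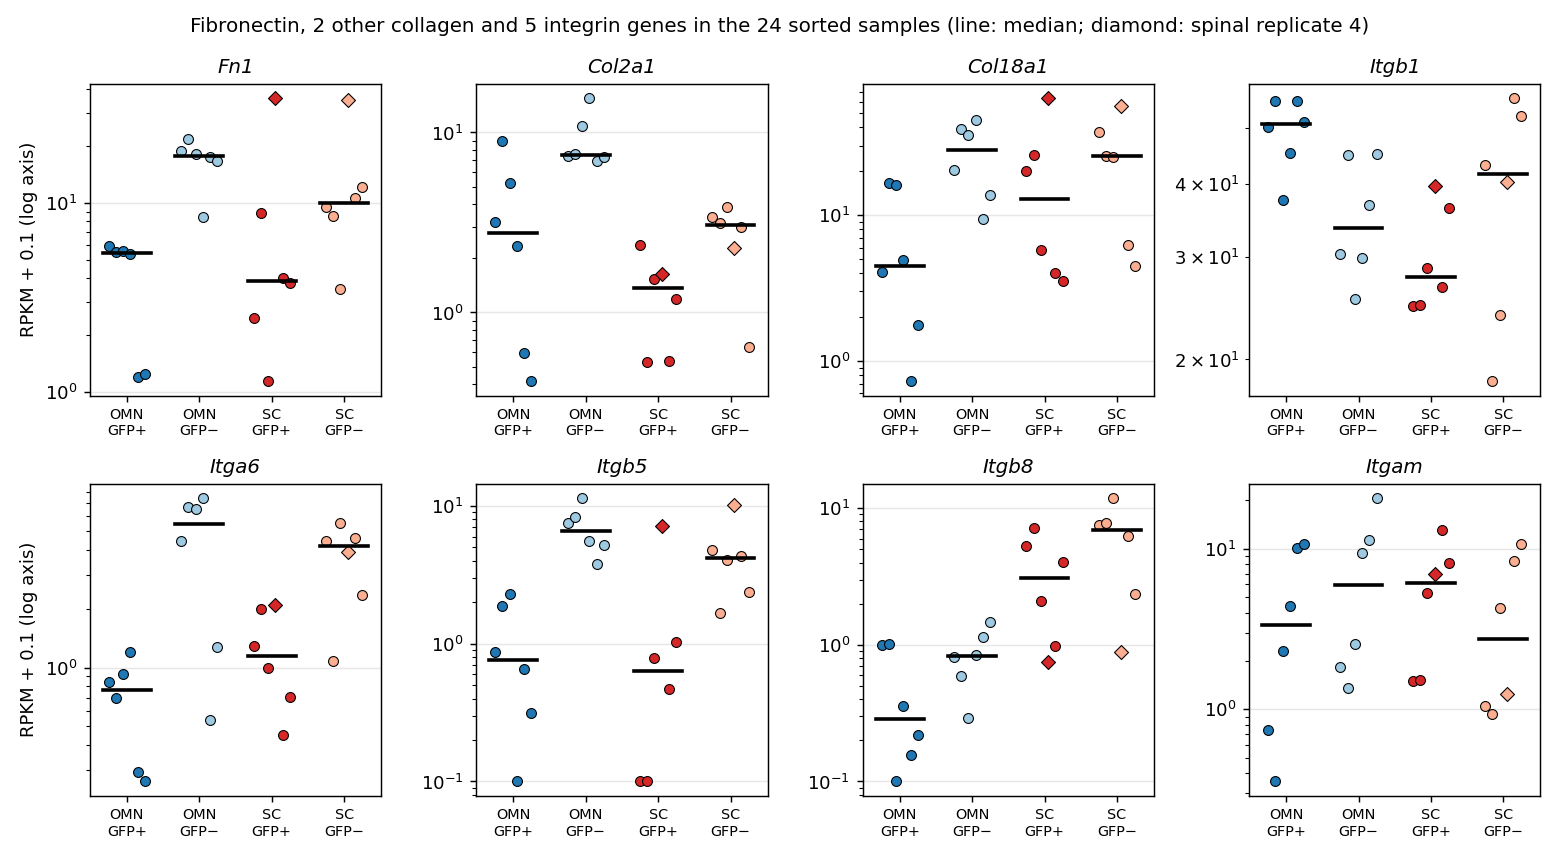
RPKM of Fn1, Col2a1, Col18a1, Itgb1, Itga6, Itgb5, Itgb8 and Itgam in each of the 24 samples (log axis, 0.1 added). Points are samples, lines are group medians and diamonds mark spinal replicate 4, which holds the highest Fn1 value of each spinal fraction (35.8 and 35.1 RPKM).

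The next question was how the GFP-negative cells of the 2 cultures differ. By limma 1 member was lower in oculomotor than in spinal GFP-negative cells, where 0.55% of all genes were lower, and 0 were higher, with 4 at an unadjusted p under 0.05, where 0.41% of all genes were higher. In both directions together, 14 members and 11.3% of all genes were at an unadjusted p under 0.05. The median log2 difference was -0.04 over the members and -0.04 over all genes. The call was Col12a1, a fibril-associated collagen, with 0, 0.0106 and 0.16 RPKM in oculomotor and 0.0927, 0.76 and 1.22 RPKM in spinal GFP-negative samples. The ranges overlapped slightly, and all values were low. Col12a1 fell by 0.66 on the log2 scale (SE 0.15, limma adjusted p 0.0352, lower in 6 of 6 samples matched by number), by 0.54 within replicates 1 to 4 and by 0.88 within replicates 5 and 6. Of 12 fits without a single sample 3 kept the call, namely those without oculomotor replicate 3 and spinal replicates 2 and 4, and in the others the adjusted p reached up to 0.0863. It was lost in 2 of 9 other alternatives, at up to 0.517.

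The count in this comparison rested on spinal replicate 4. Without both of its samples 8 members were lower in oculomotor GFP-negative cells, where 1.47% of all genes were lower, and without its GFP-negative sample alone 7 were, where 1.19% of all genes were lower. The 8 were Col4a1, Col4a2, Lama1, Lamb1, Lamc1, Itgb8, Col12a1 and Col27a1. With all samples the log2 difference of Col4a1 was -2.39 (limma adjusted p 0.229) and without the pair it was -3.41 (limma adjusted p 0.00108). For Lama1 it was -2.02 with all samples (limma adjusted p 0.108) and -2.74 without the pair (limma adjusted p 0.000119). The mean RPKM of spinal GFP-negative samples with all 6 was 8.29 times the oculomotor mean for Col4a1, 8.06 times for Col4a2, 5.68 times for Lama1, 5.35 times for Lamb1 and 3.66 times for Lamc1.

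Itgb8, the beta subunit that pairs with alpha v and activates TGF-beta, was higher in level in spinal cells of both fractions. It had 0.189, 0.727 and 1.37 RPKM in oculomotor GFP-negative and 0.787, 6.81 and 11.8 RPKM in spinal GFP-negative samples, which overlapped through the lowest spinal value. Its log2 difference was -1.76 with all samples (limma adjusted p 0.0537, lower in 6 of 6) and -2.10 without both samples of replicate 4 (limma adjusted p 0.00254). Itgb8 passed in 6 of 10 alternatives other than leaving out single samples, at 0.00254 to 0.276. Col2a1 lay the other way, its oculomotor GFP-negative range of 6.88 to 15.4 RPKM clear of the spinal 0.54 to 3.76 RPKM, which makes it higher in 6 of 6. Its log2 difference of 1.52 missed the threshold (limma adjusted p 0.0875). It passed in 2 of 10 such alternatives, at 0.031 to 0.274.

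The study's main contrast is between the GFP-positive, motor neuron cells of the 2 cultures, fitted on those 12 samples. By limma 0 of the 76 members tested were called, with 8 at an unadjusted p under 0.05, where 0.603% of 19240 genes were called. Of all genes tested, 10.1% were at an unadjusted p under 0.05. Without spinal replicate 4 the count was 0 again, with 6 at an unadjusted p under 0.05, where 0.633% of all genes were called. The median log2 difference was -2e-04 over the members and -0.04 over all genes.

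The nearest to a call was Lama1, whose 0.259 to 0.685 RPKM in oculomotor cells lay wholly below 0.901 to 4.86 RPKM in spinal cells. Its log2 difference was -1.18 (limma adjusted p 0.154, lower in 6 of 6). Col1a2 lay wholly higher in oculomotor cells, at 0.151 to 1.98 against 0 to 0.103 RPKM, with a log2 difference of 0.75 (limma adjusted p 0.161, higher in 6 of 6). Itgb8 had 0, 0.187 and 0.908 RPKM in oculomotor and 0.648, 2.96 and 7.11 RPKM in spinal GFP-positive samples, with slight overlap and a log2 difference of -1.45 (limma adjusted p 0.189, lower in 6 of 6). The log2 difference of Itgb1 was 0.70 (limma adjusted p 0.211, higher in 6 of 6), from means of 49.2 and 30.1 RPKM. For Lama1 and Col1a2 the 6 of 6 follows from ranges that do not overlap and is no further support. Matching by number between cultures rests on the labels alone. These 4 genes were singled out after their values were seen.

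Genes that work with collagens, laminins and integrins were followed in 6 lists. Of all genes, 2.34% were lower and 3.81% higher in oculomotor GFP-positive cells, and 0.83% and 0.397% in spinal ones. Between GFP-negative groups 0.55% were lower and 0.41% higher. Without both samples of spinal replicate 4 the lower shares were 3.98, 1.54 and 1.47% in the same order. At an unadjusted p under 0.05 stood 18.1, 10.4 and 11.3% of all genes. Of 27 genes for collagen maturation and cross-linking, limma called 0 in the oculomotor fractions, with 4 at an unadjusted p under 0.05, and 3 lower in spinal GFP-positive cells, or 6 without both samples of spinal replicate 4. Plod2, a lysyl hydroxylase of collagen, had a median of 7.30 RPKM in spinal GFP-positive and 31.6 RPKM in spinal GFP-negative samples and fell by 2.31 on the log2 scale (limma adjusted p 0.0037, lower in 6 of 6 pairs). Crtap, part of a prolyl hydroxylase complex for collagen, fell by 2.80 (limma adjusted p 0.0171, lower in 5 of 6 pairs). The third was P4ha2, a collagen prolyl hydroxylase subunit, which was also lower in oculomotor than in spinal GFP-negative cells, by a log2 difference of -2.09 (limma adjusted p 0.0304, lower in 6 of 6). The median log2 difference of the list was -0.13 in the oculomotor and -0.42 in the spinal fractions.

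Of 17 partners in the basement membrane, 3 were lower in oculomotor GFP-positive and 3 in spinal GFP-positive cells, with 0 higher by limma in each and 1 and 0 higher at an unadjusted p under 0.05. Sparc, a collagen-binding protein, had the highest mean over all samples, although Agrn led the list in oculomotor GFP-positive cells. Sparc had 1.53, 14.8 and 44.7 RPKM in oculomotor GFP-positive, 31.4, 116 and 277 RPKM in oculomotor GFP-negative, 13.9, 22.0 and 32.8 RPKM in spinal GFP-positive and 32.9, 838 and 1701 RPKM in spinal GFP-negative samples. The spinal fractions did not overlap, although replicate 4 at 32.8 and 32.9 RPKM brought them together. Sparc fell by 3.28 on the log2 scale in oculomotor GFP-positive cells (limma adjusted p 0.0102, lower in 6 of 6 pairs) and by 4.52 in spinal ones (limma adjusted p 0.0025, lower in 6 of 6 pairs). Nid1, the nidogen that links laminin to collagen IV, fell by 3.09 in spinal GFP-positive cells (limma adjusted p 0.00192, lower in 5 of 6 pairs).

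The third spinal call was Nid2, and the other oculomotor calls were Frem2 and Frem1, proteins of the epithelial basement membrane. As calls between fractions, P4ha2, Nid2 and Frem1 fall outside the naming rule and were named after their values were seen. Between GFP-negative groups Nid1 was lower in oculomotor cells, at a log2 difference of -2.18 (limma adjusted p 0.0359, lower in 6 of 6), and Frem1 was higher, at 0.89 (limma adjusted p 0.0443, higher in 5 of 6). The call on Frem1 was lost without both samples of spinal replicate 4, at a log2 difference of 0.81 (limma adjusted p 0.056), and 2 genes of the list were lower in oculomotor GFP-negative cells. In that fit 5 of the list were lower in oculomotor GFP-positive cells. The median log2 difference of the list was -0.61 in the oculomotor and -0.43 in the spinal fractions.

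Of 10 receptors for matrix other than integrins, 1 was lower in each culture's GFP-positive cells. Sdc4, a syndecan that acts beside integrins at adhesions, fell by 3.26 on the log2 scale in oculomotor cells (limma adjusted p 0.00927, lower in 6 of 6 pairs). Cd44, the hyaluronan receptor, fell by 1.51 in spinal cells (limma adjusted p 0.0093, lower in 5 of 6 pairs). Of 25 genes of the machinery inside integrin adhesions, 2 were higher and 1 was lower in oculomotor GFP-positive cells, and by limma 0 were called in the spinal fractions, with 3 at an unadjusted p under 0.05. Parvb, which binds the integrin-linked kinase, rose by 2.14 in oculomotor GFP-positive cells (limma adjusted p 0.00964, higher in 6 of 6 pairs). Tln2, a talin, rose by 1.28 (limma adjusted p 0.0481, higher in 5 of 6 pairs), and Tns3, a tensin, fell by 1.08 (limma adjusted p 0.0159, lower in 6 of 6 pairs). The list's integrin-linked kinase gene, Ilk, is not in the table.

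Among 22 other matrix glycoproteins and proteoglycans, 1 was higher and 1 was lower in oculomotor GFP-positive cells, and by limma 0 were called in the spinal fractions, with 3 at an unadjusted p under 0.05. Ncan, a proteoglycan of nervous tissue, had 9.43, 10.9 and 19.5 RPKM in oculomotor GFP-positive and 0.173, 1.15 and 3.09 RPKM in oculomotor GFP-negative samples, which did not overlap. It rose by 2.59 on the log2 scale (limma adjusted p 0.00465, higher in 6 of 6 pairs), while Thbs1, a thrombospondin, fell by 0.93 (limma adjusted p 0.00502, lower in 6 of 6 pairs). Of 17 matrix proteases and inhibitors, Timp4 fell by 1.23 in oculomotor GFP-positive cells (limma adjusted p 0.0133, lower in 6 of 6 pairs) and Adamts9 by 1.35 in spinal ones (limma adjusted p 0.00669, lower in 6 of 6 pairs). Between GFP-negative groups Timp4 was higher in oculomotor cells by 1.70 on the log2 scale (limma adjusted p 0.00446, higher in 6 of 6). In spinal GFP-positive cells 4 of these proteases and inhibitors were lower without both samples of replicate 4. Between the GFP-positive groups limma called 0 in each of the 6 lists, with 14 at an unadjusted p under 0.05 among them, and for the interaction it called 0 as well, with 14 at an unadjusted p under 0.05. The interaction passed for Plod2 (2.52, limma adjusted p 0.039) and Cd44 (1.47, limma adjusted p 0.0412) without both samples of spinal replicate 4.

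Markers of other cell types moved with the fractions, and their part in the results on the members was not tested. The shares of all genes given for the 6 lists apply to the counts of markers too. Of 10 markers of extra-embryonic or definitive endoderm, 7 were lower in spinal GFP-positive cells. Dab2 fell by 3.62 on the log2 scale (limma adjusted p 0.00185, lower in 6 of 6 pairs) and Gata6 by 3.58 (limma adjusted p 0.000143, lower in 6 of 6 pairs). Between GFP-negative groups 4 of the 10 were lower in oculomotor cells, Gata6 by 2.68 (limma adjusted p 0.00192, lower in 6 of 6) and Gata4 by 2.20 (limma adjusted p 0.00593, lower in 5 of 6). In the oculomotor fractions 1 was lower, Amn, by 1.04 (limma adjusted p 0.0445, lower in 5 of 6 pairs), and 8 of the 10 were lower at an unadjusted p under 0.05. Between GFP-positive groups limma called 0 of 9, with 1 at an unadjusted p under 0.05.

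Summed over the list, endoderm markers had 0.674, 1.61 and 2.12 RPKM in oculomotor GFP-positive, 7.31, 24.1 and 33.8 RPKM in oculomotor GFP-negative, 1.85, 2.73 and 10.9 RPKM in spinal GFP-positive and 9.25, 115 and 347 RPKM in spinal GFP-negative samples. The lowest spinal GFP-negative sum was that of replicate 4, the sample that was also lowest in Col4a1, Col4a2, Lama1 and Lamb1, and the other 5 ran from 71.8 to 347 RPKM. The most abundant marker over all samples was Ttr, with a mean of 58.7 RPKM in spinal GFP-negative cells, while Dab2 led in oculomotor GFP-positive cells. Afp was at 0 in all 12 GFP-positive samples. Without both samples of spinal replicate 4, 8 of the 10 markers were lower in spinal GFP-positive cells and 6 in oculomotor GFP-positive cells. In that fit 7 were lower in oculomotor than in spinal GFP-negative cells. For the interaction 5 passed with a positive value, where 0.604% of all genes did.

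Epithelial markers were lower in oculomotor GFP-positive cells in 5 of 5 cases, led by Epcam at a log2 difference of -4.30 (limma adjusted p 0.000241, lower in 6 of 6 pairs), and Krt18 at -3.66 (limma adjusted p 0.00451, lower in 6 of 6 pairs). In the spinal fractions 2 of 5 were lower, Krt8 at -3.87 (limma adjusted p 0.00757, lower in 5 of 6 pairs) and Krt18 at -3.28 (limma adjusted p 0.0317, lower in 5 of 6 pairs), and 3 of 5 were without both samples of replicate 4. Their sums had medians of 4.55, 109, 24.0 and 142 RPKM in oculomotor GFP-positive, oculomotor GFP-negative, spinal GFP-positive and spinal GFP-negative samples. Pluripotency markers were lower in oculomotor GFP-positive cells in 4 of 5 cases, led by Dppa5a at -6.96 (limma adjusted p 0.0025, lower in 6 of 6 pairs), with medians of the sum at 57.6, 6410.3, 920.3 and 231 RPKM in the same order of groups. In the spinal fractions limma called 0 of the 5, with 0 at an unadjusted p under 0.05, and the sum ran from 14.4 to 12390 RPKM in GFP-positive samples, the highest in replicate 5 and the next, 5120, in replicate 4. Between GFP-negative groups limma called 0, with 4 higher in oculomotor cells at an unadjusted p under 0.05, and for the interaction 0, with 5 at an unadjusted p under 0.05. With both samples of spinal replicate 4 left out, 3 were higher in oculomotor GFP-negative cells, where 1.2% of all genes were higher. In that fit 3 passed for the interaction with a negative value, where 0.44% of all genes did.

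Of 11 mesenchyme markers 1 was lower in spinal GFP-positive cells, Pdgfra, at -2.41 (limma adjusted p 0.0034, lower in 5 of 6 pairs), and it was also lower in oculomotor than in spinal GFP-negative cells, at -1.75 (limma adjusted p 0.0489, lower in 5 of 6). The medians of that list's sum were 6.27, 16.9, 2.48 and 9.40 RPKM. Acta2 had the highest mean over all samples, but Twist1 led in spinal GFP-positive and Pdgfra in spinal GFP-negative cells. Of 8 neural progenitor markers 2 were lower in oculomotor GFP-positive cells, Sox2 at -2.97 (limma adjusted p 0.00105, lower in 6 of 6 pairs) and Hes1 at -2.66 (limma adjusted p 0.00927, lower in 6 of 6 pairs), and of 6 floor plate markers 1 was, Foxa2 at -2.06 (limma adjusted p 0.047, lower in 6 of 6 pairs). By limma 0 were called of 8 endothelial, 7 blood, 6 muscle, 5 neural crest and 5 notochord markers in either culture's fractions. At an unadjusted p under 0.05 these 5 lists had 5 genes in the oculomotor and 4 in the spinal fractions. The endothelial marker Cdh5 was at 0 in all 12 oculomotor samples, and Itga2b, which is also a member here, was the most abundant of the blood markers. Pan-neuronal markers were higher in GFP-positive cells in 7 of 8 cases in the oculomotor and 4 of 8 in the spinal culture.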

How the data were processed

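The authors deposited RPKM values, made with HISAT2 2.0.3 on mm10 and rpkmforgenes per their notes. The annotation they counted on is not stated. Values were used as log2(RPKM + 1), with genes above 0 RPKM in at least 2 samples. limma 3.58.1 in R 4.3.3 (lmFit, eBayes with trend) was fitted to all 24 samples in 4 groups, and to the 12 GFP-positive samples for their comparison. Benjamini-Hochberg adjustment covered all genes tested, with a threshold of 0.05, and the code was tested on simulated data. Summaries and figures used Python 3.11.15, numpy 2.4.6, pandas 2.3.3 and matplotlib 3.10.9.

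Named genes were taken from all members called and the 2 with the highest mean RPKM in each class of role, and for the other lists the 2 with the largest absolute log2 difference in each direction among those called. Some members named fall outside this rule, among them Col1a1, Col1a2, Col3a1, Col27a1 and Itgb8. Fractions with the same number correlated above 0.1 in 6 of 6 pairs of each culture after group means were removed, over 11952 genes, and are called pairs. Between cultures, samples were matched by number from the labels alone. Where 2 groups do not overlap, a count of 6 of 6 follows from that and is no further support. Alternatives were an offset of 0.1 RPKM, no filter, a mean of at least 1 RPKM, median-ratio scaling, sample quality weights, replicate blocks, other sample sets and leaving out each sample. The fit without both spinal samples of replicate 4 was added after the data were seen. The members and lists were chosen with earlier results of these data known.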

Additional observations from a re-analysis of the deposited data

Results flagged for a closer look

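Within each group of 6, the lowest and highest sample of each of the 11 members with a call was compared with its nearest neighbour on log2(RPKM + 1), the gap being divided by the range of the group. In 10 of 44 groups it was above the 95% critical value of Dixon's test, which chance passes in about 1 in 20 groups if values are normal. Groups made up largely of zeros, as for Col12a1 and Col4a6, are not, so the rate does not apply to them, and no share over all genes was taken.

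Spinal GFP-negative replicate 4 stood far below its group for Col4a1 (3.03 RPKM), Col4a2 (1.78 RPKM) and Lama1 (2.45 RPKM). Its GFP-positive partner stood far above its group for Itgb5 (7.08 RPKM). The cause was not tested.

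Among oculomotor samples, Fn1 was low in GFP-negative replicate 4 (8.37 RPKM). Col4a6 was high in GFP-positive replicate 3 (0.294 RPKM). Col12a1 was high in GFP-positive replicate 6 (0.019 RPKM) and in GFP-negative replicate 3 (0.16 RPKM), values that rest on few reads. Among spinal samples, Col2a1 was low in GFP-negative replicate 6 (0.54 RPKM) and Col4a6 was high in GFP-positive replicate 6 (0.245 RPKM).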

How the results depend on the processing

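The counts of members called by limma moved with the processing as follows, and the cause was not tested. Percentages in brackets are shares of all genes tested, called in the same direction in the same fit. For members lower in oculomotor GFP-positive cells, 7 with all samples (2.34%), sample quality weights gave 15 (9.3%) and replicates 1 to 4 alone gave 2 (0.549%). For members higher there, 0 with all samples and 4 at an unadjusted p under 0.05 (3.81%), an offset of 0.1 RPKM gave 1 (3.93%), sample quality weights 2 (7.81%), the replicate block by number 1 (5.84%), the fit of the 12 samples compared 1 (6.57%) and the replicate block within culture 2 (8.22%). For members lower in spinal GFP-positive cells, 5 with all samples (0.83%), sample quality weights gave 8 (1.36%), the replicate block within culture 8 (1.6%), the fit without both samples of replicate 4 gave 8 (1.54%), and replicates 1 to 4 alone (0.00478%) and the fit of the 12 samples compared (0.0144%) gave 0 each.

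For members lower in oculomotor than in spinal GFP-negative cells, 1 with all samples (0.55%), median-ratio scaling gave 3 (0.6%), sample quality weights 9 (2.17%), the replicate block by number 4 (1.27%), the fit without spinal GFP-negative replicates 2 and 4 gave 8 (1.39%), that without both samples of replicate 4 gave 8 (1.47%), and replicates 1 to 4 alone (0.0812%) and the fit of the 12 samples compared (0.243%) gave 0 each. For members higher there, scaling gave 1 (0.681%), weights 1 (0.757%), the replicate block by number 2 (1.27%) and the fit without spinal GFP-negative replicates 2 and 4 gave 1 (0.612%). Between GFP-positive groups an offset of 0.1 RPKM (0.525%) and the fit of all 24 samples (0.866%) gave 1 each, Col1a2. For the interaction, in either direction, the fits without spinal GFP-negative replicates 2 and 4 (1.25%) and without both samples of replicate 4 (1.04%) gave 2 each.

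With each sample of the groups compared left out in turn, the counts ran from 4 to 8 lower (1.41 to 2.54%) and 0 to 1 higher (2.93 to 3.62%) in the oculomotor fractions. In the spinal fractions they ran from 5 to 8 lower (0.602 to 1.37%) and 0 to 0 higher (0.24 to 1.51%). Between GFP-negative groups the counts ran from 0 to 7 lower (0.285 to 1.19%) and 0 to 1 higher (0.218 to 0.827%). In either direction they ran from 0 to 0 between GFP-positive groups (0.35 to 0.95%) and from 0 to 2 for the interaction (0.185 to 1.06%). The fits of 39 single-gene results under the alternatives were compared with those used in the text. Of these fits, 728 kept their side of the threshold, 90 passed it only under the alternative and 44 only with the settings used in the text. In 0 of them the direction changed. The 39 were picked for a low p-value or a call with the settings used in the text. A kept direction was therefore likely beforehand, and members with weaker differences were not followed in this way. Members that passed only in some alternative numbered 11 in the oculomotor fractions, 7 in the spinal fractions, 10 between GFP-negative groups, 1 between GFP-positive groups and 2 for the interaction. No matching share of all genes was taken. The share of all genes called also rose in some alternatives, in the oculomotor fractions from 6.15% with all samples to 17.1% with sample quality weights.

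Samples with the same number in different cultures did not all resemble each other. Their correlation was above 0.1 in 4 of 6 pairs in each fraction, from -0.0386 to 0.612 in GFP-negative and from -0.175 to 0.707 in GFP-positive samples. Replicates 3, 5 and 6 stood at 0.438, 0.612 and 0.572 in GFP-negative and at 0.356, 0.707 and 0.6 in GFP-positive samples, and 3 of 12 samples correlated best with their own number in each case.

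Depth limits the members at low RPKM, where single reads decide. In the shallowest sample 1 read was worth 0.159 RPKM for the long Fn1, but 0.323 for Col6a1 and 0.403 for Itgb5. Line, reporter and patterning factors cannot be told apart, nor can cell number and RNA per cell. Whether replicates came from separate cultures is not stated.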

Other observations

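Itgam, the alpha M integrin gene, differed in level between replicate numbers. It ran from 0.255 to 9.30 RPKM in replicates 1 to 4 and from 8.03 to 20.6 RPKM in replicates 5 and 6, over all 4 groups. No member separated replicates 5 and 6 from replicates 1 to 4 without overlap (0 of 84), while 375 of all genes listed did.

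The ratio of Col4a1 to Col4a2 RPKM differed between groups in level. It was 0.331, 0.714 and 1.13 (lowest, median and highest) in oculomotor GFP-positive, 1.01, 1.74 and 2.35 in oculomotor GFP-negative, 0.769, 1.43 and 2.28 in spinal GFP-positive and 1.18, 1.82 and 2.62 in spinal GFP-negative samples. All neighbouring ranges overlapped, and the ratio was not tested.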
